A study of Mus musculus with 4 samples.

Results

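CD8 T cells of mouse inguinal white fat were taken from 4 single-cell libraries of the stromal vascular fraction, the cells other than adipocytes that are released when a fat pad is digested. They were chosen by their unique molecular identifiers (UMIs, which mark single captured transcripts): at least 2 UMIs of Cd3e, Cd3d and Cd3g together, at least 1 of Cd8a or Cd8b1, none of Cd4, Cd79a or Pdgfra, and fewer than 3 of C1qa, C1qb and C1qc. A barcode entered with 300 or more genes, 500 or more UMIs and no more than 10% of UMIs from mitochondrial genes. The rule found 412 cells among 14931 retained cells and 18336 barcodes. Of these, 74 came from the Lin+ control library, 322 from Lin+ iAdFASNKO, 2 from Lin- control and 14 from Lin- iAdFASNKO. The values below are those of the 74 and 322 Lin+ cells unless stated otherwise.

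The control library pools 7 C57BL/6 mice and the iAdFASNKO library 8 mice. The labels do not state the strain of the iAdFASNKO mice, nor the age or sex of either group. As treatment they give control and iAdFASNKO. By its name iAdFASNKO is a line in which Fasn, the fatty acid synthase gene, can be deleted inducibly in adipocytes, which are not in the digested fraction, so the gene cannot check the labels in T cells. Fasn gave 15 UMIs in the control and 36 in the iAdFASNKO members, or 39.5 and 22.4 CPM (UMIs of a gene per summed UMIs of the class, scaled to a common total), with a ratio of 0.566 (95% counting interval 0.302 to 1.11). Lin+ is the part held by magnetic beads against lineage markers, and which markers the beads carried is not given. With 1 pooled library per genotype there is no replicate and no test: intervals cover counting error only, and a difference between libraries cannot be told apart from one between mice, pools or preparations. Genotype was read from the name of each matrix, and a swapped name would turn every direction given here.

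CD8 T cells recognise peptides on MHC class I through the T cell receptor, with CD8 as coreceptor, and kill target cells by releasing granzymes and perforin. Naive CD8 T cells carry homing receptors such as Ccr7 and circulate through lymph nodes, while memory and effector cells express chemokines such as Ccl5, the granule protein Nkg7 and receptors shared with natural killer (NK) cells. Fat tissue holds both kinds, and the inguinal pad of the mouse also contains a lymph node. Whether that node was removed before digestion is not stated in the labels.

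The share of CD8 T cells among retained cells was 2.53% (95% Clopper-Pearson interval 1.99 to 3.17) in Lin+ control and 7.17% (6.43 to 7.96) in Lin+ iAdFASNKO, a ratio of 2.83 (2.21 to 3.63). The Lin- libraries held 0.0645% (0.00781 to 0.233) and 0.317% (0.174 to 0.532). The intervals of the Lin+ libraries did not overlap. CD4 T cells, chosen by the same rule with Cd4 in place of CD8, went from 51 to 154 cells, a ratio of shares of 1.96 (1.44 to 2.69). B cells went from 11.5% to 28.3% of retained cells (ratio 2.45, 2.19 to 2.74), NK cells from 1.78% to 0.445% (0.250, 0.150 to 0.418) and progenitors from 49.2% to 29.2% (0.593, 0.560 to 0.629). The higher share of CD8 T cells thus stood beside higher shares of CD4 T and B cells and lower shares of NK cells and progenitors, and in a share of all cells these cannot be told apart from a change in the other classes or in the bead sort.

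Within T cells that carried 1 coreceptor, CD8 T cells made up 59.2% (50.1 to 67.9) in Lin+ control and 67.6% (63.2 to 71.8) in Lin+ iAdFASNKO. These intervals overlapped. Of all retained cells with at least 2 CD3 UMIs, CD8 T cells were 31.5% (25.6 to 37.8) and 41.1% (37.7 to 44.7). The bars of the 4 libraries and of the T cell ratio show the same order on both denominators, with a smaller gap on the second. A stricter filter (500 genes, 1000 UMIs and 5% mitochondrial UMIs as limits) left 22 and 53 cells and lowered the ratio of shares to 2.13.

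**Figure D1:**
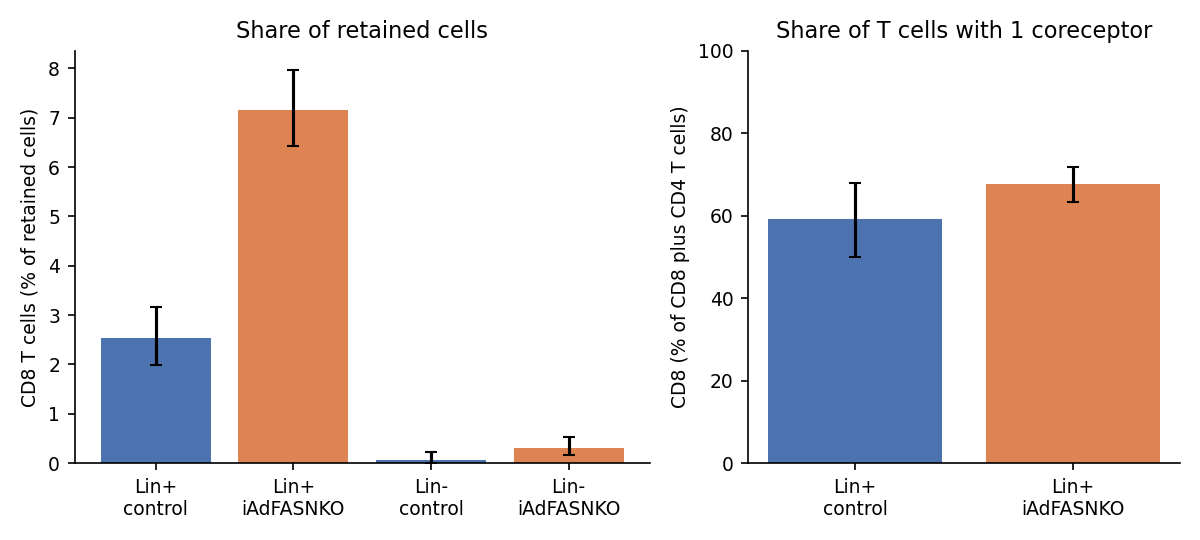
Left, CD8 T cells as a percentage of retained cells in each of the 4 libraries. Right, CD8 T cells as a percentage of CD8 plus CD4 T cells in the 2 Lin+ libraries. Bars are 1 pooled library each and error bars are 95% Clopper-Pearson intervals, which cover counting error only. Lin+ iAdFASNKO stands at 7.17% against 2.53% on the left, and at 67.6% against 59.2% on the right, where the intervals overlap.

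The members had similar depth in both Lin+ libraries. Median UMIs per cell were 4142.5 in control and 4558 in iAdFASNKO, median genes 1478.5 and 1498.5, and median mitochondrial share 5.99% and 6.28%. Summed UMIs were 379419 and 1608903, so a level in control rests on fewer molecules and has the wider interval. At the edge of the rule, 6 and 28 of the 74 and 322 members had exactly 2 CD3 UMIs, and 10 and 40 had exactly 1 CD8 UMI. Just outside lay 8 and 20 cells with 1 CD3 UMI, 3 and 37 with a Cd4 UMI, 0 and 32 with a Cd79a UMI, 7 and 13 with a Pdgfra UMI and 0 and 1 with 3 or more C1q UMIs. A further 87 and 173 CD3 cells had no coreceptor UMI. Of the members, 47 and 236 carried both Cd8a and Cd8b1, 13 and 27 Cd8a alone, and 14 and 59 Cd8b1 alone.

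Trac, the constant gene of the T cell receptor alpha chain and the 1 marker of the label that the rule does not read, had 164 UMIs in 59 of 74 control cells and 719 in 248 of 322 iAdFASNKO cells. Its levels were 432 and 447 CPM, a ratio of 1.03 (0.871 to 1.23). Trdc, the constant gene of the delta chain, gave 34 UMIs in 5 control cells and 20 in 9 iAdFASNKO cells, or 89.6 and 12.4 CPM. Of the 5 control cells, 1 held 13 of the UMIs. Some gamma-delta T cells are known to carry CD8, and their part in the results was not tested beyond leaving these cells out. The beta constant genes were used alike: Trbc1 took 35.7% of the Trbc UMIs in control and 40.4% in iAdFASNKO, against 41.0% and 36.7% in CD4 T cells. The genomic positions in mm10 (GENCODE M21) place Cd8a at chr6:71373427-71379173 and Cd8b1 at chr6:71322788-71337494, both on the plus strand.

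Other cell types left traces in many members, and the largest loads lay in a few. The setting below that leaves out cells carrying other cell types' transcripts drops only 6 and 16 members, those with larger loads. Of the 8 NK cell genes, 5 were detected in control, with Ncr1, Klra8 and Klra4 at 0, and all 8 in iAdFASNKO. The list summed to 374 and 228 CPM, against 384 and 241 in the other retained cells of the same libraries. B cell transcripts Ms4a1 and Ly6d were among those at 0 in control, where 8 of the 12 B cell genes were detected, against 11 of 12 in iAdFASNKO. MHC class II genes held 1180 UMIs in control, 533 of them in 1 cell, and 1684 in iAdFASNKO, 490 in 1 cell. They were found in 37 of 74 and 161 of 322 members. Collagen transcripts were found in 62 and 201 members, a median of 1 UMI per cell in both libraries. Neutrophil transcripts held 4 UMIs in control and 643 in iAdFASNKO, of which 618 lay in 1 cell. Haemoglobin transcripts were found in every member, a median of 10.5 UMIs per cell in control and 15 in iAdFASNKO, and 1 control cell held 8123 of the 8911 UMIs and 1 iAdFASNKO cell 13363 of 28633. Scrublet, a doublet caller, marked 34 and 69 cells of the 2 libraries (1.16% and 1.54%) and no member. Between 59 and 110 retained barcodes were shared by each pair of libraries. Of the members, 1 shared its barcode: a control cell of 29939 UMIs, whose barcode in the other libraries held 659, 575 and 592 UMIs.

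Gene levels were compared between CD8 and CD4 T cells of the same library. CD8 T cells were the deeper, with a median of 4142.5 UMIs against 2994 in control and 4558 against 3555.5 in iAdFASNKO. Of 5800 genes with at least 50 UMIs over these cells, 76 (1.31%) were at least 2-fold higher in CD8 T cells in both libraries and 76 (1.31%) at least 2-fold lower. Of the cytotoxic granule list, 7 of 11 measured genes were higher in both, and of the NK receptor list 6 of 8. Of the list of CD4, regulatory and innate lymphoid markers, 9 of 10 were lower in both, leaving out Cd4, which the rule fixes.

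Ccl5, a chemokine of memory and effector T cells, had 2343 CPM in CD8 and 442 in CD4 T cells of control, a ratio of 5.30 (4.29 to 6.61). In iAdFASNKO it had 1766 and 70.8, a ratio of 24.9 (18.7 to 34.0). Nkg7, needed for the release of granules, stood at 772 against 129 in control and 554 against 33.1 in iAdFASNKO. For both genes the CD8 and the CD4 level were lower in iAdFASNKO, the CD4 level by more. In CD8 T cells the log2 ratio of Ccl5 between genotypes moved in both directions with the setting. The ratio was -0.039 with Cd8b1 asked for and 0.27 under the stricter filter. Without cells carrying Trdc or cycling UMIs it was -0.93, and as a mean of scaled cells -0.74. NK cells of the same libraries had 5460 and 9225 CPM of Ccl5 and 2128 and 2387 of Nkg7, above the CD8 levels. The rule for NK cells asks for Nkg7.

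Ctsw, a cathepsin of cytotoxic lymphocytes, had 232 and 32.2 CPM in control CD8 and CD4 T cells and 236 and 18.1 in iAdFASNKO. Klrd1 (CD94), a partner of NK receptors, had 171 against 41.4 and 159 against 16.6. Eomes, a transcription factor of memory CD8 T and NK cells, gave 29 and 111 UMIs in CD8 and none in CD4 T cells, so it was at least 5.53-fold and 15.3-fold higher with 0 set to 3 counts. Ccr9, a gut-homing receptor that naive CD8 T cells also carry, likewise gave 14 and 96 UMIs against none, at least 2.67-fold and 13.2-fold. Runx3, which sets the CD8 lineage, was 2.86-fold (1.78 to 4.82) and 3.28-fold (2.50 to 4.37) higher in CD8 T cells. Its counterpart Zbtb7b (ThPOK), which sets the CD4 lineage, was 0.458-fold (0.0909 to 2.13) and 0.144-fold (0.0743 to 0.264). The lineage regulators thus stood on opposite sides in both libraries, Zbtb7b in control on 9 UMIs only.

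Genes of naive cells were shared by both lineages. Ccr7 had 145 and 207 CPM in control CD8 and CD4 T cells and 162 and 226 in iAdFASNKO. Dapl1, a gene of naive CD8 T cells, was 3.29-fold and 1.71-fold higher in CD8. Igfbp4 was lower in CD8 T cells, 0.450-fold and 0.418-fold, with 322 and 372 CPM in CD4 T cells. Among CD4-side genes, Ctla4 was 0.0651-fold and 0.183-fold, Icos 0.259-fold and 0.222-fold, and Ikzf2 0.137-fold in both libraries. Foxp3 had no UMI in control CD8 T cells and 5 in iAdFASNKO, with 12 and 47 in CD4 T cells. In the scatter of CD8 over CD4 ratios, cytotoxic and NK receptor genes lie high on both axes and CD4-side genes low, with the naive genes mostly near 0.

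**Figure D2:**
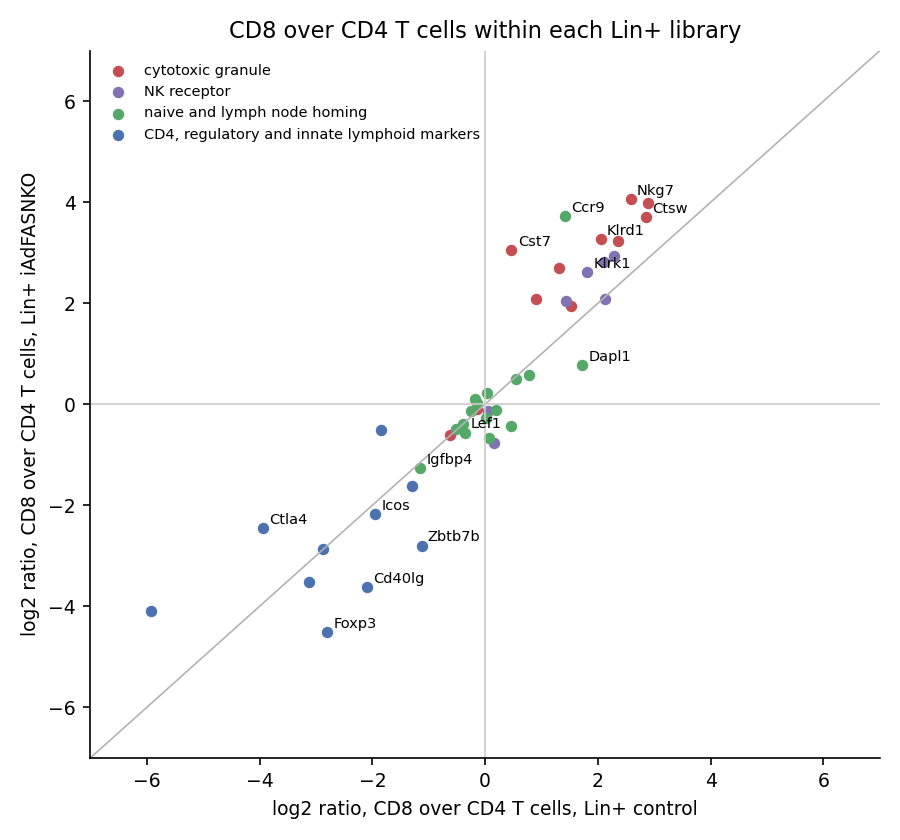
Log2 ratio of CPM in CD8 over CD4 T cells of Lin+ control (x axis) and Lin+ iAdFASNKO (y axis), 1 point per gene with at least 50 UMIs, in 4 gene lists, with equality drawn as a diagonal. A class at 0 was set to 3 counts, so those points are bounds. Of the cytotoxic granule genes, 7 of 11 lie past 2-fold on both axes, and 9 of 10 of the CD4-side list lie past it downwards, Cd4 not being drawn since the rule fixes it.

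Transcripts of naive and of memory or cytotoxic cells were both found among the members. A naive set of 4 genes, with Ccr7, Lef1 and Dapl1, and a memory or cytotoxic set (Ccl5, Nkg7, Cxcr3, Gzmk, Gzma, Gzmb, Il2rb) were read in each cell at a common depth of 1000 UMIs, as the share expected over all draws of 1000 UMIs. This left out 1 control and 6 iAdFASNKO cells. The naive set alone was found in 27.7% (17.8 to 39.4) of control and 28.9% (23.9 to 34.2) of iAdFASNKO members, the memory or cytotoxic set alone in 33.1% (22.6 to 45.1) and 26.8% (22 to 32.0), both in 29.1% (19.0 to 40.9) and 32.1% (26.9 to 37.5) and neither in 10.1% (4.30 to 19.4) and 12.3% (8.90 to 16.5). The intervals of the 2 libraries overlapped in each of the 4 classes. Without thinning, 67.6% and 73.6% of members carried both sets, so the classes are ranges set by depth and not types.

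CD4 T cells read the same way had the memory or cytotoxic set in 28.4% (16.5 to 42.9) of control and 17.8% (12 to 24.8) of iAdFASNKO cells, against 62.2% (50.1 to 73.3) and 58.8% (53.2 to 64.3) of CD8 T cells. B cells, which should lack the set, had it in 1.32% and 1.59% of cells, at median depths of 2367 and 2555 UMIs. The memory or cytotoxic set thus stood above its level in B cells. It was not particular to CD8 T cells: NK cells had it in 99.1% and 99.98% of cells. The rule for NK cells asks for Nkg7, a gene of the set, which raises that share. The naive set was found in 56.7% and 60.9% of CD8 T cells and 45.4% and 59.1% of CD4 T cells. It was not particular to T cells. B cells had it in 49.9% and 39.8% of cells and NK cells in 27.7% and 52.3%, against 0.659% and 1.60% of progenitors. Singly, Ccl5 was found in 37.2% (26.2 to 49.3) of control and 34.8% (29.5 to 40.3) of iAdFASNKO CD8 T cells at 1000 UMIs, and Il7r in 32.5% (22 to 44.4) and 48.8% (43.2 to 54.5). Unthinned, these shares were 45.9% and 43.2% for Ccl5 and 67.6% and 86.6% for Il7r. The bars of the classes show the CD8 libraries side by side at each class and the CD4 cells with few carriers of both sets.

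**Figure D3:**
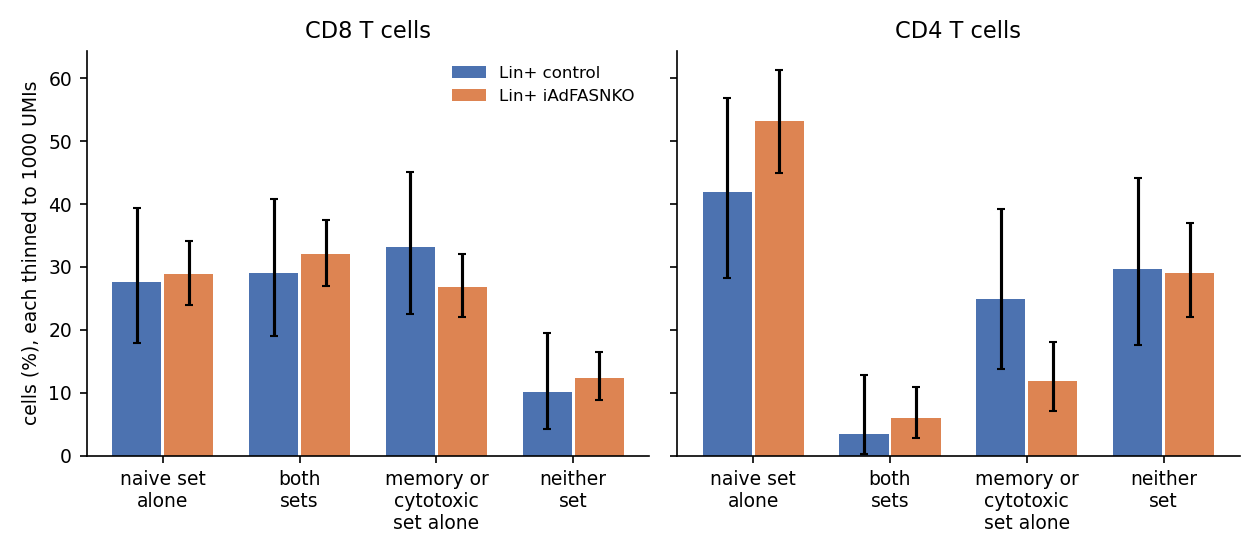
Percentage of CD8 T cells (left) and CD4 T cells (right) of each Lin+ library with the naive set alone, both sets, the memory or cytotoxic set alone or neither, at 1000 UMIs per cell. Bars are 1 pooled library each and error bars 95% Clopper-Pearson intervals of the expected share. In CD8 T cells the naive set alone stands at 27.7% and 28.9%, and both sets at 29.1% and 32.1%, with overlapping intervals.

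Members with the memory or cytotoxic set were compared with those holding the naive set alone, leaving out the genes of the sets. The comparison depends on which UMIs are drawn: over 10 draws, 51 to 117 genes were at least 2-fold higher in both libraries and 6 to 12 at least 2-fold lower. In the draw used for the values given here it was 66 (1.59%) and 12 (0.29%) of 4139 genes. In that draw the memory or cytotoxic members were the deeper. Their median was 4437.5 UMIs against 3327 in control, and 4817 against 4138.5 in iAdFASNKO. Only 8 genes were higher in all 10 draws and none was lower in all 10. These were Ahnak, Cd44, Ctla2a, Itgb1, Klrk1, Lgals1, Mki67 and S100a6, chosen after their values were seen.

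Of these 8, 5 belong to the memory and effector list, which held 18 of the 4139 genes measured in the draw used. The cells were split by memory or cytotoxic genes, so this overlap is no separate support for the split. Cd44, the adhesion receptor that marks antigen-experienced T cells, had 11.6 CPM in naive-alone and 105 in memory or cytotoxic members of control, and 27.7 and 71.8 in iAdFASNKO. S100a6, a calcium-binding protein of memory T cells, had 243 and 1106, and 151 and 572. Lgals1 (galectin-1) had 46.3 and 626, and 118 and 290. Klrk1 (NKG2D), an activating receptor of cytotoxic cells, had 11.6 and 199, and 5.03 and 68.9. These values describe genes chosen for this difference.

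Gene levels were then compared between genotypes in the summed CD8 T cells, where fewer cells of a state and less RNA per cell cannot be told apart. Of 4455 genes with at least 50 UMIs over both Lin+ libraries, 109 (2.45%) were at least 2-fold higher in iAdFASNKO and 98 (2.2%) at least 2-fold lower. The median log2 ratio of all 4455 was -0.05, and 2010 had a ratio above 1. These counts have no replicate behind them and show how far 2 libraries differ, with 74 cells in 1 of them. Without the cell that holds most UMIs of each gene, 161 were higher and 45 lower.

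Genes of receptor signalling and identity had similar levels. The 17 measured genes of T cell receptor signalling had a median log2 ratio of 0.03 and none was past 2-fold. Lck, the kinase bound to CD8, had 316 CPM in control and 458 in iAdFASNKO (ratio 1.45, 1.19 to 1.77). The 15 regulators of the CD8 lineage and T cell identity had a median of 0.00. Runx3 had 277 and 296, and Tcf7, a factor of naive and memory T cells, 324 and 325. Id3, an inhibitor of E proteins in naive and memory T cells, was the 1 regulator past the fold, with 7 UMIs in 7 control cells and 94 in 65 iAdFASNKO cells, 18.4 and 58.4 CPM (ratio 3.17, 1.48 to 8.09), and inside the fold in naive-alone cells (log2 0.26). Its relative Id2 had 290 and 178 (0.615, 0.492 to 0.774).

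The 16 genes of naive cells and lymph node homing had a median log2 ratio of 0.25, and none was past 2-fold. Of the 16, 14 had a ratio above 1, against 2010 of all 4455 measured genes. Il7r, the receptor for the survival cytokine interleukin 7, had 422 CPM in control and 729 in iAdFASNKO (ratio 1.73, 1.46 to 2.05). It was found in 50 of 74 and 279 of 322 cells. Its log2 ratio was 0.48 without cells carrying other cell types' transcripts, 0.32 in naive-alone cells and 1.20 under the stricter filter. Lef1, a transcription factor of naive T cells, had 208 and 285 (1.37, 1.08 to 1.76). S1pr1, which lets T cells leave lymphoid tissue, had 216 and 152 (0.705, 0.547 to 0.916), on the other side of 1. In the other cells of the Lin+ libraries, B cells among them, the same list had a median of 1.56. In CD4 T cells it was 0.36, so the rise was not particular to CD8 T cells.

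The 20 measured memory and effector genes had a median log2 ratio of -0.40. Of the 20, 3 were past 2-fold lower and none higher, against 2.2% and 2.45% of all 4455 measured genes. S100a4, a calcium-binding protein of migrating cells, had 419 CPM in control and 191 in iAdFASNKO (0.457, 0.376 to 0.557). Tbx21 (T-bet), which drives effector differentiation, gave 24 UMIs in 14 cells and 43 in 31 (0.423, 0.251 to 0.728). Zeb2, a transcriptional repressor expressed in effector cells, gave 33 in 11 cells and 59 in 18 (0.422, 0.271 to 0.667). Without the cell that holds most UMIs of the gene in each library, the log2 ratios of Tbx21 and Zeb2 were -0.78 and -0.83, inside the fold. S100a4 was inside it too without cells carrying other cell types' transcripts, at -0.91. Cd44 had 76.4 and 56.6 (0.740, 0.483 to 1.17) and Ly6c2, a surface protein of memory CD8 T cells, 604 and 556 (0.921, 0.795 to 1.07). In members with the naive set alone the list had a median of 0.92, on 21 control cells. In CD4 T cells its median was -0.63. There 3 of 12 measured genes were past 2-fold lower, against 66 of all 2398.

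The 11 cytotoxic granule genes had a median log2 ratio of -0.19. Gzmb (granzyme B) gave 56 UMIs in 12 of 74 control cells and 47 in 13 of 322 iAdFASNKO cells, 148 and 29.2 CPM (ratio 0.198, 0.131 to 0.297). The cell with most of them held 12 in control and 9 in iAdFASNKO. Gzmb was past the fold in each of the settings that gave it a value, its log2 ratio ranging from -2.62 to -1.01. Fcer1g, a signalling adaptor listed here with Klrk1 as an NK receptor gene, had 169 and 50.3 (0.298, 0.212 to 0.421), 25 of its 64 control UMIs lying in 1 cell. Klrk1 had 145 and 46.0 (0.317, 0.221 to 0.458), with log2 -0.23 under the stricter filter. Prf1 (perforin) had 47.4 and 56.6 (1.19, 0.714 to 2.10), Ctsw 232 and 236, and Nkg7 772 and 554 (0.718, 0.628 to 0.822).

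Gzma (granzyme A) gave 13 UMIs in 4 control cells and 115 in 11 iAdFASNKO cells, a ratio of 2.09 (1.17 to 4.04). Of the 115, 61 lay in 1 cell, and with the mean over scaled cells the log2 ratio was -0.33. It was -2.54 without cells that carry a Trdc UMI or 3 or more UMIs of cycling genes. The direction of Gzma thus rested on a few cells.

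Among chemokines and cytokines, 9 were measured with a median log2 ratio of -0.41. Ccl4, a chemokine of activated CD8 T cells, had 206 CPM in control and 62.2 in iAdFASNKO (0.302, 0.223 to 0.412), with 29 of its 78 control UMIs in 1 cell. Xcl1, which attracts cross-presenting dendritic cells, had 79.1 and 33.6 (0.424, 0.267 to 0.687). Its log2 ratio was -0.08 when Cd8b1 was asked for, so among cells with a Cd8b1 UMI the difference was close to none. Ifng, interferon gamma, had 81.7 and 41.0 (0.502, 0.323 to 0.796) and Ccl5 2343 and 1766 (0.754, 0.699 to 0.813). Over the settings the log2 ratio of Ccl5 went from -0.93 to 0.27, and it was -0.039 with Cd8b1 asked for. Ltb, lymphotoxin beta, had 380 and 505 (1.33, 1.11 to 1.60). Its log2 ratio was 0.13 without cells carrying other cell types' transcripts and 0.94 under the stricter filter. The stricter filter, with 22 and 53 cells, gave the list a median of 0.57.

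Of the 25 measured immediate early and heat shock genes none had a ratio above 1, against 2010 of all 4455 measured genes. The median log2 ratio of the list was -0.47. Of the 25, 6 were past the fold, all lower, against 2.2% of all 4455. Fos had 285 and 136 CPM (0.478, 0.378 to 0.608), Fosb 121 and 34.8 (0.287, 0.191 to 0.434) and Dusp1, a phosphatase of the MAP kinases, 229 and 85.8 (0.374, 0.284 to 0.495). Nr4a1 (Nur77), which T cell receptor signalling induces, had 132 and 52.2 (0.396, 0.276 to 0.574). These calls were lost in some settings. Fos had log2 -0.18 under the stricter filter, -0.77 with Cd8b1 asked for and -0.99 with 2 CD8 UMIs asked for, and Dusp1 -0.79 under the stricter filter. In naive-alone cells Fosb, Dusp1 and Nr4a1 were inside the fold, at -0.46, -0.16 and -0.81. Zfp36, which promotes decay of cytokine messages, had a ratio of 0.496 and was inside the fold in 7 settings, from -0.96 to -0.45. Atf3 gave 39 UMIs in 5 control cells and 17 in 12 iAdFASNKO cells, and its log2 ratio went from -3.28 to 1.10 without cells that carry other cell types' transcripts. In the other cells of the Lin+ libraries the list had a median of -0.37, and in CD4 T cells -0.53, so the list stood below 0 in these cells as well.

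The 28 measured interferon response genes had a median log2 ratio of 0.04. Of the 28, 4 were past the fold, all higher, against 2.45% of all 4455 measured genes. Ifit3, an antiviral protein induced by type I interferon, gave 2 UMIs in 2 of 74 control cells and 64 in 38 of 322 iAdFASNKO cells, a ratio of 7.55 (2.01 to 63.7). Ifit1 had 13.2 and 31.7 CPM (2.41, 0.966 to 7.72), Usp18 13.2 and 28.0 (2.12, 0.845 to 6.85) and Xaf1 21.1 and 42.9 (2.03, 0.977 to 4.90). The intervals of Ifit1, Usp18 and Xaf1 held 1. Isg15, a ubiquitin-like protein induced by interferon, had 44.8 and 65.9. In the other Lin+ cells Ifit3 had a ratio of 0.735, below 1.

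The 8 measured tissue residency genes had a median log2 ratio of -0.04. Of the 8, 1 was past the fold higher and 2 lower, against 2.45% and 2.2% of all 4455 measured genes. The 2 lower ones were Xcl1 and Nr4a1, given above. Itgae (CD103), an integrin of resident T cells, gave 8 UMIs in 8 control cells and 71 in 45 iAdFASNKO cells (2.09, 1.01 to 5.03), and was inside the fold without the shared barcode (log2 0.95). Cxcr6, a homing receptor of resident memory cells, had 73.8 and 77.7 CPM and Cd69, an early activation and residency marker, 182 and 147. Of 14 checkpoint genes 5 were measured, of which Nr4a2, a nuclear receptor of activated T cells, was past the fold lower with 62 UMIs in control and 85 in iAdFASNKO (0.323, 0.230 to 0.456). Pdcd1 (PD-1) had 8 and 6 UMIs in all and Lag3 5 and 6, Havcr2 1 and 4, and Tigit none in either library. The 28 subunits of oxidative phosphorylation had a median of -0.13 and the 14 measured genes of glycolysis and lipid metabolism -0.26, with none past the fold in either. Gapdh and Ldha, enzymes of glycolysis, had 759 and 507 (0.667, 0.583 to 0.766) and 295 and 180 (0.611, 0.489 to 0.766). The log2 ratio of Gapdh moved towards 0 in 7 settings. It was -0.18 without shared barcodes, which drops 1 control member, and -0.11 without cells carrying other cell types' transcripts. That of Ldha was -0.38 under the stricter filter and -0.0034 in naive-alone cells.

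Proliferation genes were lower in iAdFASNKO, and this turned on a few control cells. Of 7 measured genes 5 were past the fold, all lower, against 2.2% of all 4455 measured genes. The median log2 ratio of the 7 was -1.37. Mki67 (Ki-67) gave 76 UMIs in 8 control cells and 55 in 19 iAdFASNKO cells (0.171, 0.118 to 0.245), and 39 of the 76 were in 1 cell. At least 3 UMIs of 7 cycling genes were carried by 7 of 74 and 12 of 322 members, and of the 270 control UMIs of these genes 117 and 93 lay in 2 cells. The cell with 117 is the one that shares its barcode with other libraries. Without it the median was -0.29. In CD4 T cells the list had a median of -0.77, with 2 of 7 measured genes past 2-fold lower, against 66 of all 2398.

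**Figure D4:**
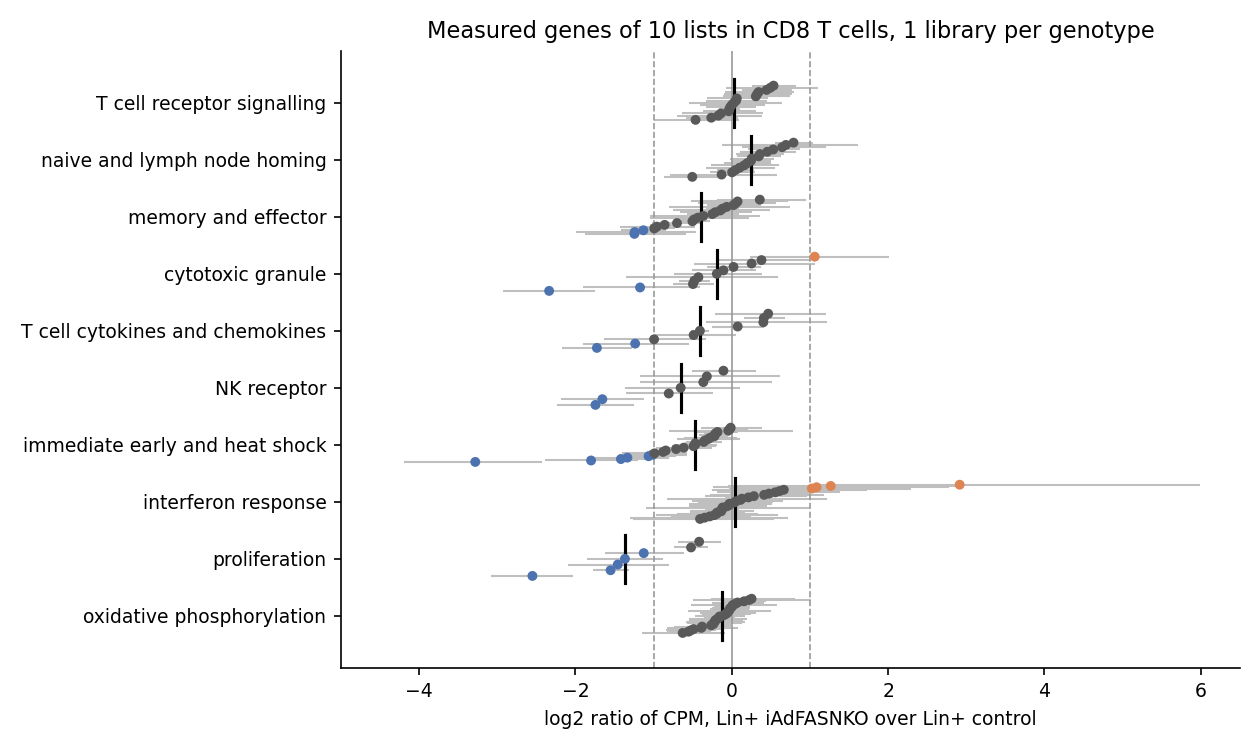
Log2 ratio of CPM, Lin+ iAdFASNKO over Lin+ control, for each gene with at least 50 UMIs in 10 lists of CD8 T cells. Points are genes, grey lines 95% counting intervals, black bars list medians and dashed lines the 2-fold limits, with genes past them in orange (higher) or blue (lower). The naive list stands at a median of 0.25, memory and effector at -0.40 and immediate early at -0.47, and proliferation at -1.37, a value that a few cycling control cells carry.

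Several of the genes with the largest and smallest ratios had most of their UMIs in few cells. S100a9 and S100a8, neutrophil proteins, led the higher side, and 618 of the 643 UMIs of the neutrophil genes lay in 1 cell. Without the top cell of each gene their log2 ratios were -0.26 and 0.73. Retnla had 62 of its 92 iAdFASNKO UMIs in 1 cell and Naaa 31 of 61. Mettl9 was spread, with 4 UMIs in 4 control and 76 in 68 iAdFASNKO cells (ratio 4.48, 1.68 to 16.9). Irf8, a factor of effector CD8 T cells and of dendritic and B cells, gave 3 UMIs in 2 cells and 85 in 21, 32 of them in 1. On the lower side Lgals3 (galectin-3) had 158 and 34.2 CPM (0.216, 0.147 to 0.317), Rora 71.2 and 21.1 (0.297, 0.174 to 0.512) and Dusp5, a phosphatase of ERK, 94.9 and 30.5 (0.321, 0.205 to 0.508). H2-Ab1, an MHC class II gene, had 598 and 190, and its log2 ratio was -0.85 without cells that carry other cell types' transcripts.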

How the data were processed

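Single-cell libraries of the inguinal stromal vascular fraction were sequenced with a droplet kit that counts UMIs at the 3' end of transcripts, per the labels' protocols. The authors deposited raw UMI counts, whole numbers per gene and barcode, per the file headers, and the submitters' processing notes name Cell Ranger 3.1.0, Seurat 3.0 and mm10, while the matrix header gives 3.0.2. The labels tie each barcode tag to a fraction. Depth was 21622291 UMIs in Lin+ control and 25865546 in Lin+ iAdFASNKO, and median UMIs of retained cells 5362 and 3339.

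Counts of the members were summed per library and divided by their total (Python 3.11.15, scipy 1.17.1, scanpy 1.11.5). Intervals are Clopper-Pearson for shares, exact Poisson for levels and exact conditional binomial for ratios, at 95%. A count of 0 was set to 3 counts for the class. A gene was measured with at least 50 UMIs and past the fold at 2 or more, or 0.5 or less. The calculation was tested on simulated counts, drawn per gene from a Poisson distribution and without cells. That test cannot show how the intervals hold where 1 cell carries many UMIs of a gene.

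The plan was 1 thinning of each cell to 1000 UMIs. After that draw's shares had been seen to move with the draw, they were replaced by the exact expected share over all draws, and the comparison of states was repeated over 10 draws. The values of 1 draw stand in the closing section.

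The members and the 29 gene lists (417 genes, 411 of them in the files) were chosen with earlier results of these data known. Besides list genes, the 10 genes with the largest and the 10 with the smallest ratio, with UMIs in at least 10 cells of the higher library, and the 10 with the largest CD8 over CD4 ratio could be named. The fold of 1.5 from which a list median counts as a call, and the spread used to judge whether it moved (the median half-width of its members' intervals), were set after the data were seen. Some genes of the lists are not reported here by name.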

Additional observations from a re-analysis of the deposited data

Results flagged for a closer look

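Barcodes left out by the mitochondrial limit held cells that meet the CD8 UMI rule. Among barcodes with enough genes and UMIs but more than 10% mitochondrial UMIs, 6 of 388 in Lin+ control (1.55%, 0.570 to 3.34) and 104 of 1151 in Lin+ iAdFASNKO (9.04%, 7.44 to 10.8) met it. This is a signal in data that the comparisons do not use, above the level in the control library. These barcodes had a median of 2421 and 1757 UMIs. With a mitochondrial limit of 20%, a minimum of 200 genes and no UMI minimum, the members were 80 and 405.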

How the results depend on the processing

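No paired analysis was possible because each genotype and fraction is 1 library. Leaving out cells that carry other cell types' transcripts, cells with Trdc or cycling UMIs and shared barcodes, keeping naive-alone cells only, and taking 1 draw were chosen after seeing the data. Where a value moved, the cause was not tested unless the setting itself names it. Over shares, counts and lists, 499 recomputed values stayed within the spread, 64 moved and 3 reversed.

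The ratio of CD8 shares stayed above 1 under the 8 alternatives tried, and moved past its interval with the stricter barcode filter, to 2.13. The shares were then 1.21% in control and 2.58% in iAdFASNKO, and the CD8 part of CD8 plus CD4 cells 58.9% in iAdFASNKO. Thinning to 1000 UMIs before the rule gave 0.983% and 3.26%, and 73.6%. Asking for 2 CD8 UMIs gave 6.28% in iAdFASNKO.

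Genes past the fold numbered 109 higher and 98 lower. They were 27 and 34 with the stricter filter, 484 and 345 at 20 UMIs or more, 801 and 3788 with no minimum, 344 and 444 at a fold of 1.5 and 38 and 22 in naive-alone cells. Without the top cell of each gene 161 were higher and 45 lower.

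The stricter filter changed the states to 50.05% with the memory or cytotoxic set alone and 15.4% with both in control, and to 23.7% naive alone, 38.2% memory or cytotoxic alone and 23.9% both in iAdFASNKO. At 500 UMIs both sets were in 12.9% and 15.1%, and neither in 25.6% and 28.5%. At 2000 UMIs both were in 51.7% and 55.5% and neither in 3.30% and 2.76%, with 23.6% naive alone and 18.1% memory or cytotoxic alone in iAdFASNKO. With 2 UMIs of a set asked for, both were in 6.17% and 8.27% and neither in 32.6% and 36.7%. In 1 draw the naive set alone was in 28.8% and 27.8%, the memory or cytotoxic set alone in 37.0% and 25.6%, both in 26.0% and 37.0% and neither in 8.22% and 9.49%.

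List medians (log2) moved as follows. Proliferation, -1.37, was -0.61 without cells carrying other types' transcripts, -0.020 without Trdc or cycling cells, -0.29 without shared barcodes, -0.45 without top cells and 0.47, reversed, in naive-alone cells. Memory and effector was 0.92 and actin 0.20 in naive-alone cells, cytokines 0.57 under the stricter filter and NK receptors -1.35 with Cd8b1 asked for. The B cell list, -1.44, reversed to 0.35 without cells carrying other types' transcripts and to 0.23 at 20 UMIs. It was -0.21 with no minimum, -1.01 without top cells, -1.94 with Cd8b1 and -3.41 in naive-alone cells. The progenitor list was 1.54 under the stricter filter and -0.93 without cells carrying other types' transcripts. NK markers were -1.76 without Trdc or cycling cells and -0.23 with no minimum. The red cell list, -0.39, ranged widely: -0.48 with the looser and 0.46 with the stricter filter, -0.72 with Cd8b1, -0.70 with 2 CD8 UMIs, 0.32 without other types' transcripts, -0.70 without Trdc or cycling cells, -0.51 without shared barcodes, -0.011 as a mean of scaled cells, 2.07 without top cells and 0.54 in naive-alone cells.

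Single genes past the fold reversed as follows (log2). In naive-alone cells these were Itgae -0.62, Nr4a2 0.38, Ifit1 -0.20, Usp18 -0.086, Ptbp2 -0.086, Top2a 1.02, Hmgb2 0.63, Stmn1 1.02 and Hist1h2ap 0.21. Without Trdc or cycling cells they were Gzma -2.54, Stmn1 0.61 and S100a8 -0.28, and without other types' transcripts Atf3 1.10, S100a9 -0.62 and Naaa -0.36. Others were Gzma -0.33 as a mean of scaled cells, S100a9 -0.26 without its top cell, S100a8 -0.16 with Cd8b1, Pclaf 0.093 without shared barcodes and Xaf1 -0.53 under the stricter filter. Among named genes 67 values fell inside the fold, those of Fos, Dusp1, Zfp36, Id3, Tbx21 and Zeb2 among them. A further 134 values moved. Changes of sign in genes inside the fold are counted there and not as reversed. In naive-alone cells Id2 was 0.92, Cd44 1.26 and Nkg7 0.49, each below 0 in all members. Depth limits the control side, with 74 cells and 379419 UMIs against 322 and 1608903.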
